A study of Rattus norvegicus with 6 samples.

Results

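Matrix metalloproteinases and their inhibitors, the TIMPs, were followed in the aorta of spontaneously hypertensive rats (SHR), an inbred rat line with inherited high blood pressure. Members were taken by name, as every probe set whose single gene symbol in the platform annotation was Mmp2, Mmp9, Mmp11, Mmp14, Mmp16, Mmp23, Adamts1, Timp1, Timp2 or Timp3. Of these 10 genes, 9 were found, with 11 probe sets, among 4736 genes with a probe set of a single symbol. Adamts1, a secreted protease that cuts proteoglycans, had no probe set under this rule and was not analysed here.

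Runners were SHR that ran voluntarily in wheel cages over 5 weeks, and non-runners were SHR that did not run. The labels give no other treatment, and neither the age nor the sex of the animals. Aortic tissue was collected and 3 aortae were pooled for each Affymetrix rat chip, with 3 chips (A, B and C) per group. Nothing in the labels says how animals were divided among pools, so p-values measure only the spread between these pools, which may be technical. In pooled whole tissue, fewer cells of a type and less RNA per cell cannot be told apart.

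Metalloproteinases are zinc enzymes that cut collagens, elastin and other proteins of the extracellular matrix. They are made as inactive proenzymes, and TIMPs block the active site of the mature enzyme. In the arterial wall this balance is known for its part in remodelling under altered pressure and flow. The comparison asks whether running went with a change in the transcripts of either side.

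All values are intensities on a linear scale, and differences are on the scale of log2(intensity + 2.4) after quantile normalization, runner minus non-runner. As a guide to background, a control level of 40.8 was taken as the 95th percentile of 19 control probe sets that target yeast genes or the sense strand. A probe set under it on all arrays is not established as signal. By that guide 7 of the 11 probe sets lay above background on all 6 arrays. Those of Mmp9, Mmp11 and Mmp16 lay below it on all 6, and one of the probe sets for Mmp2 lay above it on 4.

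No member passed the test. Of 10 member probe sets tested, 0 were higher and 0 lower in runners by limma at an adjusted p under 0.05, as were 0% of all 5244 probe sets. At an unadjusted p under 0.05, 1 of the 10 passed (Mmp11), where 8.07% of all probe sets did. In 7 of the 10 the difference was above 0, in 3 it was below, and the median was 0.047, against -0.0052 for all probe sets tested. Under median centring the signs of Timp2 and the dimmer Mmp2 probe set turned. With the brightest probe set of each of 8 genes the median was 0.16.

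Normalized values of Mmp11 and Mmp23 exceeded all non-runner values on all 3 runner arrays. These 2 of 10 probe sets compare with 7.13% of all probe sets tested. None of the 10 was lower on each runner array, against 7.76% of all. In the deposited intensities, before normalization, Mmp14 joined them, giving 3 of 10 against 7.36%. Counted in either direction, the 2 became 5 without non-runner A, against 29.3% of all probe sets at that setting, and 5 without runner A, against 23.9%. Mmp14 and Timp3 joined in both on the higher side. A Timp1 probe set joined on the lower side, the brighter without non-runner A and the dimmer without runner A. With 2 arrays against 3, groups separate more easily, so these shares replace the ones above. Without runner B the count was 4, against 22.3%, when the dimmer Mmp2 probe set and Timp2 joined on the higher side. It was 3 without runner C, against 24.5%, when a Timp1 probe set joined on the lower side. It stayed at 2 without non-runner B, against 24.8%, and without non-runner C, against 25.9%. With arrays centred on their medians in place of quantile normalization, 3 of the 10 did not overlap, against 14.4% of all. Mmp11 and Timp3 were higher there and a Timp1 probe set lower.

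**Figure D1:**
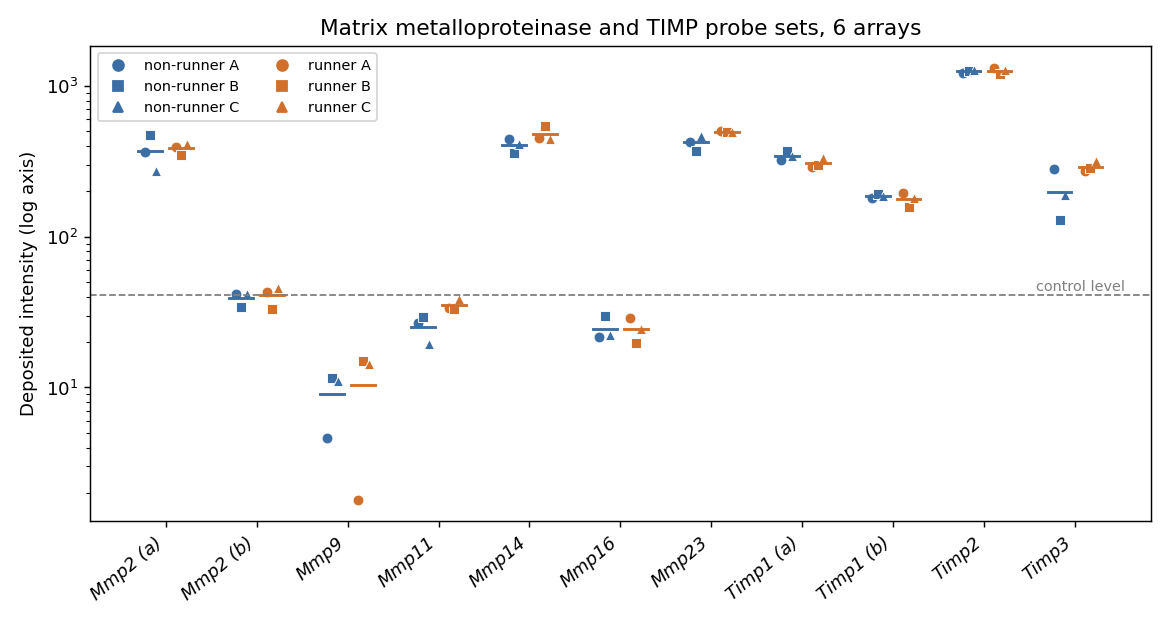
Deposited intensity of the 11 member probe sets (log axis) on 3 non-runner arrays (blue) and 3 runner arrays (orange), with marker shape for the array letter, horizontal bars for group means and a dashed line at the control level of 40.8. For Mmp2 and Timp1, (a) is the brighter and (b) the dimmer probe set, and the probe sets of Mmp9, Mmp11 and Mmp16 lie below the line on all 6 arrays.

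Mmp2, gelatinase A, cuts denatured collagens and basement membrane collagen, and is made by smooth muscle cells and fibroblasts. In the brighter of its probe sets, U65656_at, it measured 367, 475 and 272 on non-runners A, B and C and 395, 350.5 and 414 on runners A, B and C. The runner values fell inside the range of the non-runner values, with non-runner B the highest and non-runner C the lowest of all. Group means were 371 ± 102 and 387 ± 32.6 (SD, n = 3), with a log2 difference of 0.07 ± 0.22 (SE, limma adjusted p = 0.944). The interval of that log2 difference ran from -0.44 to 0.59 (95%, limma), and without non-runner C the difference was -0.13. The other probe set, X71466_at, measured 33.4 to 45.9 over the 6 arrays, near the control level (difference 0.019 ± 0.17 SE). Across the 6 arrays the pair had a Pearson r of -0.22 (Spearman 0.14), and they were brightest on different arrays.

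Mmp14, the membrane-type metalloproteinase that activates the Mmp2 proenzyme at the cell surface, measured 442, 359 and 412 on non-runners A, B and C. On runners A, B and C it measured 455, 539 and 448. The lowest runner array stood just above the highest non-runner array, and after normalization the groups overlapped. Means were 404 ± 42.1 and 480.4 ± 50.8 (SD, n = 3), with a log2 difference of 0.25 ± 0.16 (SE, limma adjusted p = 0.726) and an interval from 0.92-fold to 1.54-fold. Without runner B, the highest array, the difference was 0.15.

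Mmp23 encodes a membrane-anchored protease that furin-type convertases release. It measured 427, 371 and 467 on non-runners A, B and C and 505, 492 and 495 on runners A, B and C. All runner values lay above all non-runner values and close to one another. Means were 422 ± 48.3 and 498 ± 6.67 (SD, n = 3), with a log2 difference of 0.25 ± 0.15 (SE, limma adjusted p = 0.698) and an interval from 0.94-fold to 1.51-fold. Non-runner B was the lowest array for both Mmp14 and Mmp23. Without it the differences were 0.17 for Mmp14 and 0.17 for Mmp23.

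Mmp11, stromelysin-3, which furin activates inside the cell, measured 26.7, 29.3 and 19.3 on non-runners A, B and C and 33.9, 33.4 and 38.9 on runners A, B and C. The groups did not overlap, but the control level of 40.8 was above every value, which leaves no fold to give. Its unadjusted p of 0.0365 (limma adjusted p = 0.587) therefore compares values that are not established as signal. Over the 6 arrays the probe sets with a pattern nearest to these values were those of Fgfr2, Rpl27 and Urod (Pearson r = 0.98, 0.96 and 0.95, log2 values), and 24 of 4321 had an r over 0.9. The Fgfr2 means, 14.5 in non-runners and 39.7 in runners, also lay under 40.8. Those of Rpl27 (597 and 728) and Urod (81.4 and 109) lay above it. This likeness rests on 6 points that share the group difference and is given as a description.

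Mmp16, another membrane-type enzyme, measured 19.6 to 29.6 over all arrays, with means of 24.5 ± 4.40 and 24.3 ± 4.55 (SD, n = 3). Mmp9, gelatinase B, is a product of macrophages and neutrophils and of stimulated smooth muscle. It measured 1.8 to 15.1, which placed it among the dimmest 40% of probe sets, and it was not tested. Neutrophil markers were no brighter: 0 of 3 measured (S100a8, S100a9 and Cxcr2) lay above the control level on any array. Macrophage markers lay above it on all arrays for 5 of 8, with summed intensities of 1445 to 1776 in non-runners and 1351 to 1764 in runners.

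**Figure D2:**
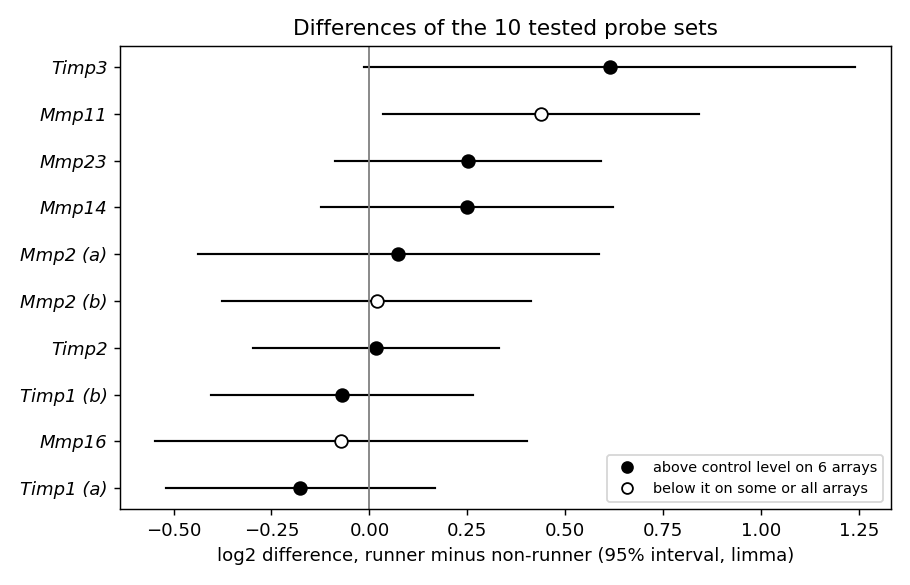
Log2 difference (runner minus non-runner) of the 10 tested member probe sets with limma's 95% intervals; filled circles lay above the control level on all 6 arrays and open circles did not. All intervals except that of Mmp11 include 0, and that of Timp3 is the widest.

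Across arrays the TIMPs ranged from the steadiest to the most variable of the members tested. Timp2 inhibits Mmp2 and also bridges its proenzyme to Mmp14 for activation. It measured 1226, 1252 and 1280 on non-runners A, B and C and 1324, 1205 and 1267 on runners A, B and C. The non-runner values lay inside the runner range, which was the wider of the pair. Means were 1253 ± 26.6 and 1265 ± 59.6 (SD, n = 3), with a log2 difference of 0.016 ± 0.14 (SE, limma adjusted p = 0.978) and an interval from 0.81-fold to 1.26-fold.

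The coefficient of variation of Timp2 over the 6 arrays was 3.32%, which only 13 of the 5244 tested probe sets matched or went under, Timp2 included. The median over all tested probe sets was 17.7%. Bright probe sets tend to vary less, and among 179 probe sets within 0.5 of its mean log2 level Timp2 stood at percentile 2.79. Timp3 stood at the other end, with a coefficient of variation of 29.1% and percentile 93 among 655 probe sets of similar brightness. The metalloproteinase probe sets lay between this pair, from 11.2% for Mmp23 to 22.5% for Mmp11.

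**Figure D3:**
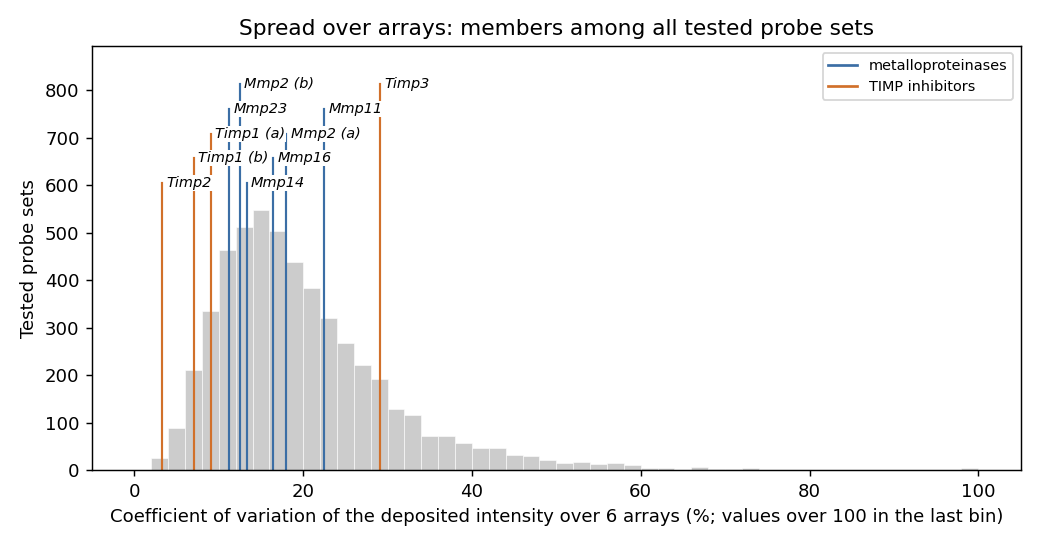
Histogram of the coefficient of variation of the deposited intensity over 6 arrays for the 5244 tested probe sets, with vertical lines at the metalloproteinases (blue) and TIMPs (orange). Timp2 lies at 3.32%, on the left edge, and Timp3 at 29.1%, to the right of the other members.

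Upstream sequences of these most and least variable TIMPs are shown so that the pair can be compared by sequence. RefSeq windows of the assembly GRCr8, from a BN rat and not from SHR, were matched by symbol for 5 of the 9 members. The 250 bases before the annotated start are printed 5′ to 3′ on the gene's strand. Capitals mark the GC box (GGGCGG, or CCGCCC on the other strand).

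Timp2, chr10:104089215-104089464, minus strand: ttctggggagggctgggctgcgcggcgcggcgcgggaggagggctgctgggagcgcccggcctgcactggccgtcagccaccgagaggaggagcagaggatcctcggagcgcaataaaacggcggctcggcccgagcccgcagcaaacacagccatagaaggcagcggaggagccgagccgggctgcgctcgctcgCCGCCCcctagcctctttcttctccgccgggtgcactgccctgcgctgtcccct

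Timp3, chr7:19459559-19459808, minus strand: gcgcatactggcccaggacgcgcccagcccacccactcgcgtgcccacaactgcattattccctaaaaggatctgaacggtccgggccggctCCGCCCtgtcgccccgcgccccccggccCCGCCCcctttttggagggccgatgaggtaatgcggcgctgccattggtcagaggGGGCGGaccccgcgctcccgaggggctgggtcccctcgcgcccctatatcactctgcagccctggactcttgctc

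The Timp2 window held 1 GC box, starting 54 bases before the start, and the Timp3 window held 3, at 158, 130 and 75 bases before it. A GC box was present in 30.5% of 33469 windows of the same length. Neither window held an AP-1 motif (TGANTCA, which reads the same on both strands, in 6.34% of windows) or a TATA box (TATAAA, or TTTATA on the other strand, in 12.9%). None of the GC boxes overlapped another motif searched. These matches describe the letters only.

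Timp3 is held in the extracellular matrix and also inhibits ADAM and ADAMTS proteases. It measured 280, 129 and 188 on non-runners A, B and C and 274, 283 and 318 on runners A, B and C. Non-runner A lay within the runner range, and non-runners B and C lay well below it. Means were 199 ± 76.3 and 292 ± 23.1 (SD, n = 3). The log2 difference of 0.61 ± 0.27 (SE) was the largest among the members, with an unadjusted p of 0.0544, a limma adjusted p = 0.625 and an interval from 0.99-fold to 2.36-fold.

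The Timp3 values were set beside a sign of RNA quality. The ratio of 3′ to 5′ signal of beta-actin rises where transcripts are degraded or copied short of their 5′ end. It was 1.28, 2.14 and 1.67 on non-runners A, B and C and 1.30, 1.43 and 1.22 on runners A, B and C. The arrays with the highest ratios, non-runners B and C, were those with the least Timp3. Of the other arrays, runner C had the lowest ratio, 1.22, and the most Timp3, 318. Runner B, at 1.43, had 283 and non-runner A, at 1.28, had 280, against 274 on runner A at 1.30. Both arrays with high ratios were non-runners, and only non-runner A, at 1.28, lay within the ratios of the runners. With that array alone to separate them, ratio and group can hardly be told apart. The part of RNA quality was not tested. The GAPDH ratio was also highest on those arrays, at 1.95 and 1.39 against 1.11 to 1.22 on the others. With the beta-actin ratio as a term in the fit the Timp3 difference was 0.12 (limma adjusted p = 0.976), and without non-runner B it was 0.33. Summed adipocyte markers, 8 of 10 above the control level on all arrays, were also lowest on non-runner B, at 6100 against 7548 to 7999 elsewhere. The part of adipocytes in the Timp3 values was not tested. The same term in the fit left differences of 0.16 for Mmp14 and 0.16 for Mmp23.

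**Figure D4:**
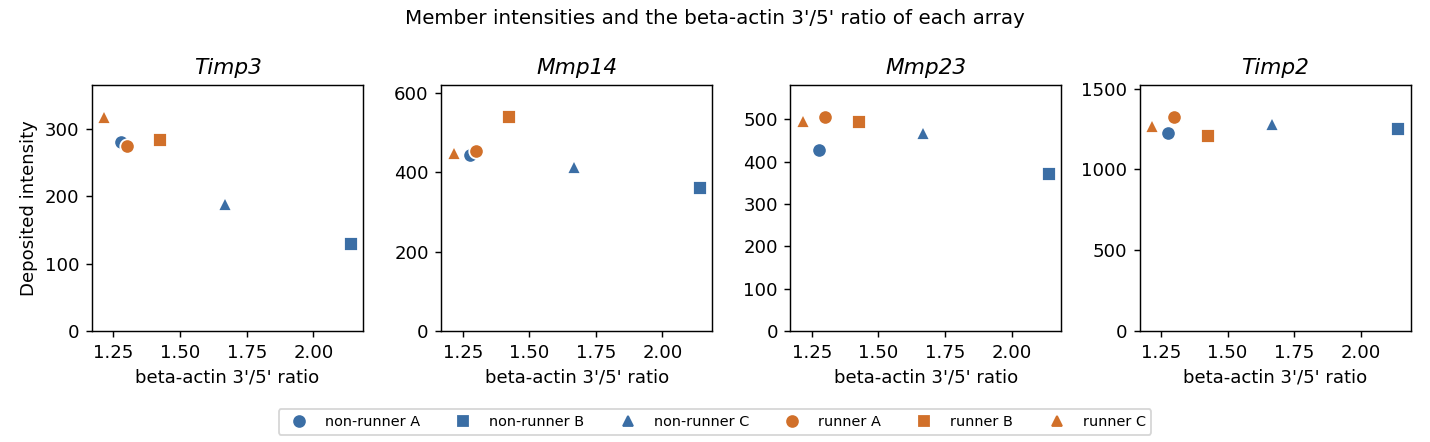
Deposited intensity of Timp3, Mmp14, Mmp23 and Timp2 on each array (vertical axes from 0) against that array's beta-actin 3'/5' ratio, non-runners in blue and runners in orange. Timp3 is lowest, at 129, on the array with a ratio of 2.14 (non-runner B), while Timp2 stays between 1205 and 1324 on all arrays.

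Timp1, the inducible inhibitor that binds Mmp9, had a pair of probe sets for the same source transcript. The brighter, rc_AI169327_at, measured 324, 370 and 342 on non-runners A, B and C and 289, 299 and 334 on runners A, B and C. Only runner C reached into the non-runner range, above non-runner A. Means were 345 ± 23.1 and 307 ± 23.7 (SD, n = 3), with a log2 difference of -0.18 ± 0.15 (SE, limma adjusted p = 0.766) and an interval from 0.70-fold to 1.12-fold. The dimmer, rc_AI169327_g_at, measured 186 ± 6.45 and 178 ± 17.9 (difference -0.07 ± 0.15 SE), with runner A the highest and runner B the lowest array. Over the 6 arrays the pair had a Pearson r of 0.35 (Spearman 0.086).

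Protease and inhibitor were also set against each other within each array, which removes any scaling of the whole array. The log2 ratio of Mmp2 to Timp2 was -1.74, -1.36 and -2.21 on non-runners A, B and C and -1.71, -1.78 and -1.64 on runners A, B and C. It differed by 0.058 between groups (two-sided exact permutation p = 0.8, adjusted over 3 ratios p = 0.8). The log2 ratio of Mmp14 to Timp2 was -1.46, -1.79 and -1.62 in non-runners and -1.54, -1.14 and -1.51 in runners, and differed by 0.23 (exact permutation p = 0.3, adjusted p = 0.8). Without runner B that difference was 0.099. Non-runner A lay among the runners in the Mmp14 ratio, so the groups overlapped. For Mmp9 over Timp1 the difference was 0.10 (exact permutation p = 0.8, adjusted p = 0.8), with Mmp9 not established as signal. An exact test of 3 arrays against 3 cannot go below 0.1. The ratios carry no meaning as levels, since different probe sets are read with different strength.

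The other metalloproteinases named in the list of related genes were dim. Of 17 genes listed, among them other metalloproteinases, Timp4 and Reck, 6 were on the array (Mmp3, Mmp7, Mmp8, Mmp10, Mmp12 and Mmp13) and all lay below the control level on all arrays. Mmp7, matrilysin, was higher on each runner array, at 20.2, 35.5 and 22.4 against 9.3, 17.1 and 18.1, all below 40.8. Mmp12, the macrophage elastase, measured 21.7 to 31.5. Of the 6, 2 were tested, and 0 passed limma's adjusted test in either direction. ADAM and ADAMTS proteases had 8 of 29 genes on the array and 4 tested, with 0 past the adjusted test. The difference was above 0 in 3 of these 4 and below in 1. Their median was 0.45, against -0.0052 for all probe sets tested. An unadjusted p under 0.05 was reached by 0 of the 4, against 8.07% of all. Of the 4, 0 were without overlap, against 14.9% of all probe sets in either direction.

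Activators and regulators of these proteases, such as plasminogen activators, cathepsins and serpins, had 23 genes tested of 34 listed. By limma's adjusted test 0 were higher and 0 lower, and the median was 0.0093. An unadjusted p under 0.05 was reached by 1 of the 23, against 8.07% of all probe sets. Plau, the urokinase that starts plasmin-driven activation of metalloproteinases, measured 29.6, 25.6 and 21.9 in non-runners and 34.8, 32 and 46.4 in runners, above the control level only on runner C. Serping1, the C1 inhibitor, measured 369 ± 31.0 and 304.9 ± 29.9, A2m, alpha-2-macroglobulin, which traps proteases, 86.1 ± 6.22 and 71.8 ± 7.36, and Ctss, cathepsin S, 373 ± 49.8 and 320.3 ± 18.8 (SD, n = 3). Normalized values of Serping1, A2m and Ctss were lower on all runner arrays, with limma adjusted p of 0.693, 0.694 and 0.748. For Ctss the deposited intensities overlapped, at 342 on runner B and 340.4 on non-runner C. The other 3 tested probe sets of A2m differed by -0.22, -0.08 and -0.08, against -0.27 in the one shown. Counts for the list were 1 higher and 3 lower without overlap, of 23, against 7.13% higher and 7.76% lower of all probe sets tested.

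Matrix proteins that the enzymes cut had 18 genes tested of 31 listed, with a median of 0.065. By limma's adjusted test 0 were higher and 0 lower. An unadjusted p under 0.05 was reached by 0 of the 18, against 8.07% of all probe sets. Without overlap 3 were higher and 1 lower, against 7.13% and 7.76% of all. Lum, lumican, which spaces collagen fibrils, measured 781 ± 42.0 without running and 938 ± 122 with it (SD, n = 3). Spp1, osteopontin, measured 1240 ± 21.2 and 1409 ± 139, and Col1a1, of type I collagen, 2803 ± 45.1 and 2996 ± 237, each without overlap. For Col1a1 the probe set shown differed by 0.16, and its other 3 tested probe sets by 0.04, 0.49 and -0.10. Dcn, decorin, measured 3947 ± 189 and 3268 ± 57.2 in its brightest probe set, also without overlap, but its other 3 tested probe sets differed by 0.06, 0.12 and 0.01. Adjusted p from limma was 0.681 for Lum, 0.751 for Spp1, 0.756 for Dcn and 0.784 for Col1a1.

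Of 14 tested transcription factor and cytokine genes that act on these promoters, 0 passed the adjusted test and 10 were below 0 (median -0.068). An unadjusted p under 0.05 was reached by 1 of the 14, against 8.07% of all probe sets. The 1 was Jund, an AP-1 subunit, at 179, 56.3 and 127 on non-runners A, B and C and 277, 206 and 203 on runners A, B and C (log2 difference 1.03 ± 0.38 SE, limma adjusted p = 0.585). Like Timp3 it was lowest on non-runner B.

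The labelled tissue fitted its markers in part. Smooth muscle markers lay above the control level on all arrays for 9 of 9 genes and fibroblast markers for 7 of 8. Endothelial markers did so for 4 of 9, with Vwf, Kdr, Icam2 and Sele below it on every array. Summed fibroblast markers were 13583 to 15550 in non-runners, highest on non-runner B, and 13684 to 14452 in runners. Summed levels of nerve and Schwann cell markers separated the groups, at 1287 to 1554 in non-runners and 1028 to 1136 in runners, with 2 of 6 genes above the control level on all arrays. So did those of endothelial markers, at 557 to 682 and 538 to 545. By limma's adjusted test 0 markers of either cell type were called. Of single probe sets tested, 14.9% separated the groups in either direction. A sum over markers is a different measure, and no such share was worked out for sums. The part of these cell types in the member values was not tested. Array medians ran from 28.5 to 32.2, and precision is limited by there being 3 arrays a group.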

How the data were processed

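Per the labels, total RNA of pooled rat aortae was measured on 3 non-runner and 3 runner chips. The deposited table holds the authors' intensity per probe set on a linear scale. The software behind these values was not given in the sources used here. From the values, each array's mean without the top and bottom 2% of probe sets was near 100, as scaling to a common target would give.

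Of 8799 probe sets, 59 controls were left out and 7006 had a single symbol. Log2(intensity + 2.4), with the 10th percentile of positive values as pseudocount, was quantile normalized. Without the dimmest 40%, 5244 probe sets were compared with limma 3.58.1 in R 4.3.3 (lmFit, eBayes, two-sided, Benjamini-Hochberg, threshold 0.05), and the fit was tested on simulated data. All 10 named genes were taken whatever they showed. From each related list up to 4 genes without overlap were named, by smallest p. The members and lists were chosen with earlier results of these data known. The planned ratio of Adamts1 to Timp3 was not run, since Adamts1 had no probe set under the rule. Alternatives were other pseudocounts, normalizations, filters, variance models, covariates, and leaving out arrays. Figures used matplotlib 3.10.9.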

Additional observations from a re-analysis of the deposited data

How the results depend on the processing

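Under 17 alternatives, 0 member probe sets were higher and 0 lower by limma's adjusted test, also with the chip letter as a replicate block. The letters A, B and C were shared by both groups, and the titles of the runner chips add D, E and F in brackets. Same-letter correlations of deviations were -0.085, -0.041 and -0.051, so no likeness between arrays of the same letter was seen. With so few arrays a group, these values cannot decide whether the letters pair arrays. Calls over all probe sets were 1 with array quality weights, 0 to 4 as arrays were left out (2 without non-runner A, 4 without non-runner C) and 0 elsewhere. Member probe sets without overlap in either direction numbered 1 of 7 with the dimmest 60% left out, when Mmp11 was not tested, against 15.8% of all. As arrays were left out they numbered 2 to 5 of 10, against 22.3% to 29.3% of all. The members' median was 0.11 with the beta-actin ratio as covariate, 0.15 with probe sets averaged per gene, and 0.0090 to 0.15 as arrays were left out.

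Of 167 member differences, 153 kept their sign and 14 turned; the cause was not tested. The dimmer Mmp2 probe set was -0.0083 with median centring, -0.10 with the beta-actin ratio, -0.068 with array weights and -0.055 to 0.15 as arrays were left out. Timp2 was -0.038 with median centring and -0.0018 to 0.054 as arrays were left out. Mmp16 was 0.10 with the beta-actin ratio and -0.23 to 0.069 as arrays were left out. Leaving out arrays gave -0.13 to 0.28 for the brighter Mmp2 probe set and -0.13 to 0.00079 for the dimmer Timp1 one. It gave -0.16 to 0.27 for Mmp2 over Timp2, -0.27 to 0.68 for Mmp9 over Timp1 and 0.099 to 0.31 for Mmp14 over Timp2. Mmp11, Mmp14, Mmp23, Timp3 and the brighter Timp1 probe set kept their sign in all. The control level exceeded 55.4% to 57.5% of probe sets per array, and signal over background limits what the dim members can show.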
